A study of Zea mays with 4 samples.

Results

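The genes described here are 5 maize genes of sex determination and jasmonate synthesis, *ts1* (tasselseed1, Zm00001d003533), *ts2* (tasselseed2, Zm00001d028806), *sk1* (silkless1, Zm00001d002970), *opr7* (Zm00001d032049) and *opr8* (Zm00001d050107). They were chosen by their identifiers and not by a rule on their values, though earlier results of these data were known. They are 5 of the 39179 genes listed in the FPKM table. RNA came from female inflorescences (FI), the young ears, and from top internodes of the stem (TI) of plants of the Puma hybrid kept in a greenhouse, at 60 DAS (days after sowing). The plants were at early reproductive stage R1, and the ears were bagged before their silks emerged and were taken before pollination. At 60 DAS the study describes silks that reached beyond the husk leaves. No mutant and no treatment was part of the comparison, which had 2 libraries per tissue. The methods call the libraries biological replicates, and how many plants each one holds is not given in the sources used here.

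Maize bears male flowers in the tassel and female flowers in the ear, and both kinds begin as flowers with stamens and pistils. In the tassel the pistils are aborted, which needs jasmonate and the genes *ts1* and *ts2*, and a loss of either gene leaves pistils, and so seeds, in the tassel. Jasmonate synthesis begins in the plastid, where lipoxygenases such as TS1 oxidize linolenic acid, and allene oxide synthase and allene oxide cyclase turn the product into oxophytodienoic acid (OPDA). In the peroxisome OPDA is then reduced by OPDA reductases, of which OPR7 and OPR8 serve jasmonate synthesis in maize, and shortened to jasmonic acid. TS2 is a short-chain dehydrogenase. SK1 is a glycosyltransferase that protects the pistils of the ear from abortion.

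The libraries were shallow, and TI replicate 2 stood apart from TI replicate 1. The FPKM values (fragments scaled to transcript length and to the mapped total of the library) rest on 4552953 and 4071536 mapped fragments in FI and on 3464635 and 2807120 in TI. CPM are counts scaled to the library total after its adjustment by TMM, a scaling between libraries. The summed level of 12 floral MADS-box genes, which specify the organs of the flower, was 1206 and 953 CPM in FI replicates 1 and 2. It was 32.7 CPM in TI replicate 1 and 470.5 CPM in TI replicate 2. That sum was 3.03% of the FI mean in TI replicate 1, where 6 of the 12 genes were at 0, and 43.6% of it in TI replicate 2, where none was at 0. The summed level of 7 green tissue genes was 351 and 233 CPM in FI, against 852 CPM in TI replicate 1 and 402 CPM in TI replicate 2. Most of the FI sum was *mdh6*, which overlapped between the tissues, with 226 and 163 CPM in FI, against 250 and 218 CPM in TI. Of the 5 green tissue genes with enough counts for a test, 4 had both FI libraries below both TI libraries, as had 26.6% of all genes. The TI replicates are given apart throughout, and the part these markers have in the results was not tested. In RNA of whole organs, fewer cells of a type and less RNA per cell cannot be told apart.

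The 3 genes with a clear signal, *ts1*, *opr7* and *opr8*, were present in all 4 libraries, at 3.21 to 19.8 FPKM, and none of them was called different between FI and TI. *ts2* and *sk1* stood at or near the limit of detection in both tissues. Of the 5 genes, 3 passed the filter of a mean of at least 1 FPKM and were tested, as log2(FPKM + 1), with limma across 19531 genes. None of the 3 had an FDR (Benjamini-Hochberg adjusted p) under 0.05, and none had an unadjusted p under 0.05. In the same fit 0% of all genes tested had an FDR under 0.05, and 19.2% had a p under 0.05. For a single gene, 2 libraries against 2 cannot give a two-sided exact permutation p below 0.3333, so genes were tested only in fits across all genes.

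**Figure D1:**
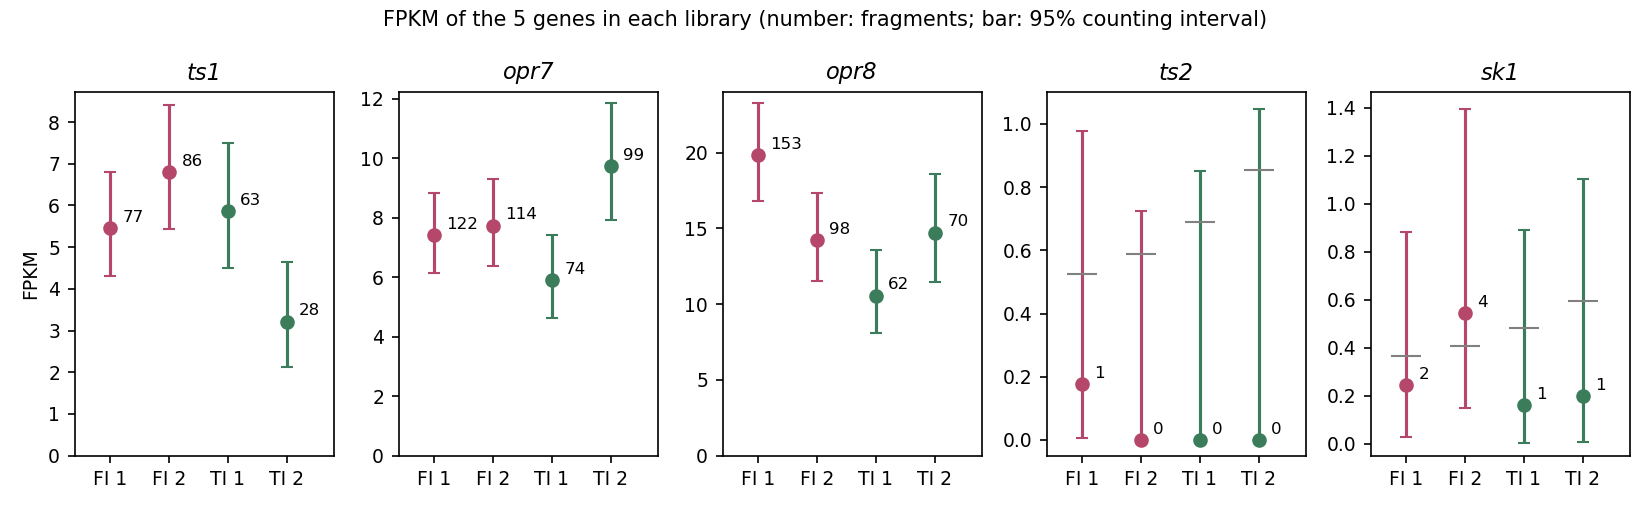
FPKM of *ts1*, *opr7*, *opr8*, *ts2* and *sk1* in FI replicates 1 and 2 (red) and TI replicates 1 and 2 (green), each gene on its own linear axis. Points are single libraries with their fragment numbers, vertical bars are exact 95% Poisson intervals, and grey ticks mark the FPKM of 3 fragments. *opr8* lies at 10.6 FPKM or more in each library, while *ts2* and *sk1* hold 0 to 4 fragments per library.

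*ts1* encodes a plastid lipoxygenase of the first step of jasmonate synthesis. It had 5.45 and 6.81 FPKM in FI replicates 1 and 2, from 77 and 86 fragments, against 5.86 FPKM in TI replicate 1 and 3.21 FPKM in TI replicate 2, from 63 and 28 fragments. TI replicate 1 thus lay between the FI libraries, and TI replicate 2 was the lowest of the 4 libraries. The exact 95% Poisson interval, which covers counting error only, was 4.30 to 6.81 FPKM and 5.44 to 8.41 FPKM in the FI replicates, and 4.50 to 7.50 FPKM and 2.14 to 4.65 FPKM in the TI replicates. *ts1* averaged 6.13 ± 0.959 FPKM in FI and 4.54 ± 1.87 FPKM in TI (SD, n = 2 each). Its log2FC, FI over TI on the log2(FPKM + 1) scale, was 0.40 (95% interval −0.50 to 1.30), with an FDR of 0.515 in limma. The TI replicates differed by 0.70 on that scale (replicate 1 minus replicate 2), more than the log2FC itself. Among the genes above 0 FPKM in a library, *ts1* stood at percentiles 46.7 and 52.1 in FI, against 49.1 and 34.5 in TI.

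*opr7* and *opr8* encode the closely related OPDA reductases of the peroxisome. *opr7* had 7.41 and 7.74 FPKM in FI replicates 1 and 2 (122 and 114 fragments), against 5.91 FPKM in TI replicate 1 and 9.75 FPKM in TI replicate 2 (74 and 99 fragments). The FI libraries were close to each other and lay between the TI libraries, which differed by 0.64 on the log2(FPKM + 1) scale, with TI replicate 2 the higher. *opr7* averaged 7.57 ± 0.235 FPKM in FI and 7.83 ± 2.72 FPKM in TI (SD, n = 2 each), with a log2FC of −0.01 (95% interval −0.79 to 0.78) and an FDR of 0.992 in limma. That interval is wide enough to hold differences of over 0.7 in either direction.

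*opr8* had 19.8 and 14.2 FPKM in FI replicates 1 and 2 (153 and 98 fragments), against 10.6 FPKM in TI replicate 1 and 14.7 FPKM in TI replicate 2 (62 and 70 fragments). TI replicate 2 lay between the FI libraries, and TI replicate 1 was the lowest. *opr8* averaged 17.0 ± 3.98 FPKM in FI and 12.6 ± 2.94 FPKM in TI (SD, n = 2 each), and its log2FC was 0.40 (95% interval −0.32 to 1.12), with an FDR of 0.420 in limma. The FI replicates differed by 0.45 and the TI replicates by 0.44 on the same scale, each more than the log2FC. At percentiles 80.7 and 72.7 in FI, against 64.8 and 73.1 in TI, *opr8* stood in the upper part of the expressed genes in all 4 libraries.

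The libraries of FI and TI overlapped for *ts1*, *opr7* and *opr8*, so that 0 of these 3 genes had both FI libraries on one side of both TI libraries, against 60.5% of all genes tested. The replicate differences of these 3 genes can be set beside those of all genes, whose median absolute log2 difference was 0.229 between the FI libraries and 0.373 between the TI libraries. In TI all 3 genes exceeded that median, and in FI *opr7* was below it, with a difference of 0.06, while *ts1*, with 0.28, and *opr8*, with 0.45, exceeded it.

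*ts2* was all but undetected. It had 0.175 FPKM in FI replicate 1, taken as 1 fragment, and was at 0 in FI replicate 2 and in both TI replicates. The limit was set at 3 fragments, which for *ts2* is 0.588 FPKM in FI replicate 2, 0.691 FPKM in TI replicate 1 and 0.853 FPKM in TI replicate 2. The exact 95% Poisson intervals of these zeros reached higher, to 0.723, 0.850 and 1.05 FPKM. The value of FI replicate 1 was also under its own limit of 0.526 FPKM, so that no difference between FI and TI was detectable at this depth, and no fold change is given.

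*sk1* had 0.244 and 0.545 FPKM in FI replicates 1 and 2, from 2 and 4 fragments, against 0.160 and 0.198 FPKM in TI replicates 1 and 2, from 1 fragment each. The tissues thus did not overlap, as for 60.5% of all genes tested in FPKM. The Poisson interval of each FI library, 0.0295 to 0.881 FPKM and 0.149 to 1.40 FPKM, nevertheless held both TI values. Only the 4 fragments of FI replicate 2 were above the limit of 3 fragments, which for *sk1* is 0.366 and 0.409 FPKM in FI, against 0.481 and 0.593 FPKM in TI. Scaled to depth, the 6 fragments of FI against the 2 of TI gave a ratio of 2.18, with an exact 95% interval of 0.390 to 22.1 that covers counting error only and holds 1. *sk1* was not tested across genes because of its low level. The same ratio was 1.30 (1.00 to 1.70) for *ts1*, 0.992 (0.812 to 1.21) for *opr7* and 1.38 (1.12 to 1.72) for *opr8*. The intervals of *ts1*, whose lower bound was 1.0018, and of *opr8* lay above 1, but they leave out the spread between replicates, which the fits across genes include.

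By mean FPKM, a level per length, the order was *opr8*, *opr7*, *ts1*, *sk1*, *ts2* in FI and the same in TI, from 17.0 to 0.0876 FPKM in FI and from 12.6 to 0 FPKM in TI. In FPKM, *opr8* exceeded *opr7* beyond the spread of the libraries in FI (14.2 to 19.8 FPKM against 7.41 to 7.74 FPKM) and in TI (10.6 to 14.7 FPKM against 5.91 to 9.75 FPKM). In deposited counts the order of *opr7* and *opr8* was the reverse in all 4 libraries. The Poisson intervals of *opr7* and *ts1* overlapped in FI replicate 1, FI replicate 2 and TI replicate 1. Such an overlap is no test of the difference between the genes, which was not tested. In TI replicate 1 they were nearly equal in FPKM, with 5.91 FPKM for *opr7* and 5.86 FPKM for *ts1*. In deposited counts, not scaled to length, *opr7* was above *ts1* in all 4 libraries, with 72 against 13 counts in TI replicate 1. In TI replicate 2 they lay apart, with an interval of 7.92 to 11.9 FPKM for *opr7* and of 2.14 to 4.65 FPKM for *ts1*. *sk1* and *ts2* could not be ranked at this depth.

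With TI replicates 1 and 2 set against FI one at a time, the genes differed in which internode library stood farther from FI. These limma fits rest on a lone TI library that is assumed to vary like the FI libraries. *ts1* had a log2FC of 0.05 (95% interval −0.66 to 0.75) against TI replicate 1 and of 0.75 (0.03 to 1.47) against TI replicate 2, with an FDR of 0.916 and 0.252. The interval against TI replicate 2 leaves out 0, as did that of 18.7% of all genes in the same fit (p under 0.05), and of 40.3% in the fit against TI replicate 1. *opr8* had the opposite order, with a log2FC of 0.62 (−0.07 to 1.32) against TI replicate 1 and of 0.18 (−0.47 to 0.83) against TI replicate 2, with an FDR of 0.157 and 0.776. The log2FC of *opr7* changed sign, with 0.31 (−0.32 to 0.94) against TI replicate 1 and −0.33 (−0.93 to 0.28) against TI replicate 2, with an FDR of 0.404 and 0.545. Of the 3 genes, *opr7* and *opr8* were thus higher in the TI library with more floral MADS-box RNA, and *ts1* was lower there.

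**Figure D2:**
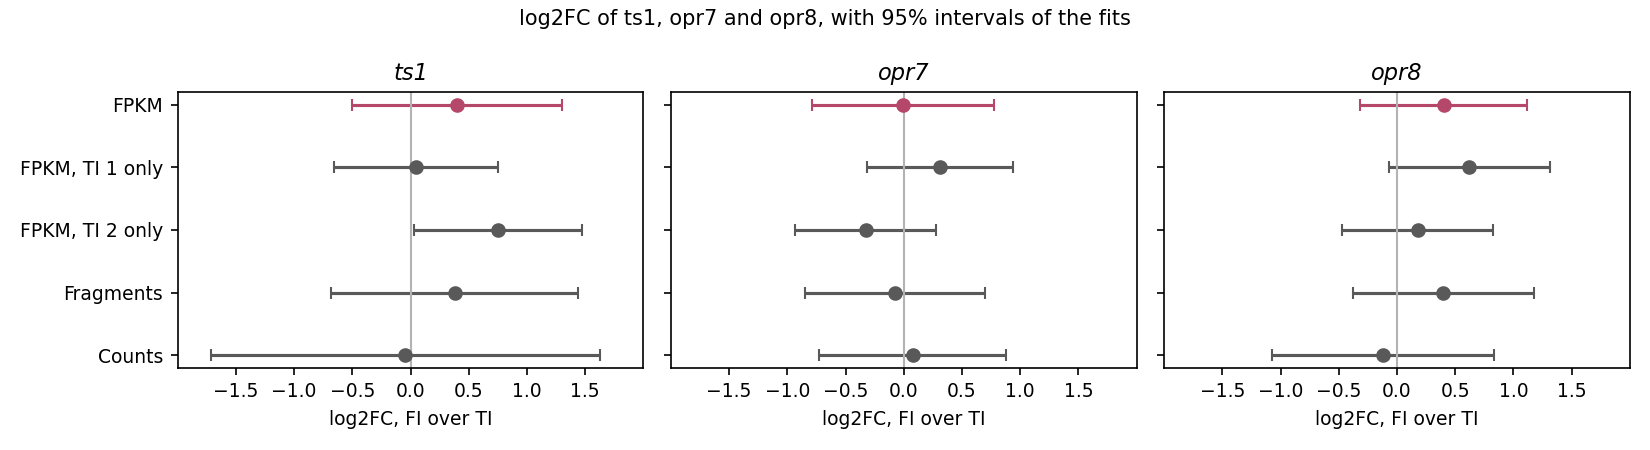
log2FC, FI over TI, of *ts1*, *opr7* and *opr8* with 95% intervals, from FPKM with all 4 libraries (red), from FPKM with TI replicate 1 or TI replicate 2 alone, from the fragments recovered from FPKM, and from the deposited counts. With all 4 libraries every interval holds 0; the interval of *ts1* against TI replicate 2 alone, 0.03 to 1.47, does not, as for 18.7% of all genes in that fit.

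The deposited count table, made on the older version 3 gene models, could be searched for *ts1*, *opr7* and *opr8*. *ts1* (GRMZM2G104843) had 12 and 11 counts in FI replicates 1 and 2, against 13 and 4 counts in TI replicates 1 and 2. *opr7* (GRMZM2G148281) had 132 and 123 counts in FI, against 72 and 95 counts in TI. *opr8* (GRMZM2G082087) had 39 and 30 counts in FI, against 24 and 28 counts in TI. With edgeR's quasi-likelihood test across 15479 genes, the log2FC was −0.04 (95% interval −1.71 to 1.62; FDR 0.979) for *ts1*, 0.08 (−0.72 to 0.88; FDR 0.919) for *opr7* and −0.12 (−1.08 to 0.83; FDR 0.884) for *opr8*. None of the 3 was called, as were 0% of all genes in that test, and none had a p under 0.05, which 15.8% of all genes had. Fragments recovered from the FPKM gave −0.08 (−0.85 to 0.70; FDR 0.895) for *opr7*, and 0.38 (−0.68 to 1.44; FDR 0.593) for *ts1* and 0.40 (−0.38 to 1.18; FDR 0.456) for *opr8* in the same test. For each of the 3 genes the sign of the difference thus depended on the table, and no call did. *ts2* and *sk1* were not analysed here in the count table, *sk1* because it could not be paired with a version 3 name.

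*opr7* and *opr8* changed places with the measure. In FPKM *opr8* exceeded *opr7* in all 4 libraries, by 2.68 and 1.84 times in FI and by 1.79 and 1.51 times in TI replicates 1 and 2. *opr7* made up 27.2% and 35.3% of their summed FPKM in FI, against 35.8% and 39.8% in TI. The FPKM divide by a length that came out as 3617 bases for *opr7* and 1693 bases for *opr8*, a ratio of 2.14. In fragments, before that division, the share of *opr7* was 44.4% (exact 95% binomial interval 38.4 to 50.5%) and 53.8% (46.8 to 60.6%) in FI, against 54.4% (45.7 to 63.0%) and 58.6% (50.8 to 66.1%) in TI. In deposited counts its share was 77.2% (70.2 to 83.3%) and 80.4% (73.2 to 86.4%) in FI, against 75.0% (65.1 to 83.3%) and 77.2% (68.8 to 84.3%) in TI. The ranges of the 3 measures over the libraries did not overlap, and the intervals of fragments and of counts did not overlap in any of the 4 libraries.

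**Figure D3:**
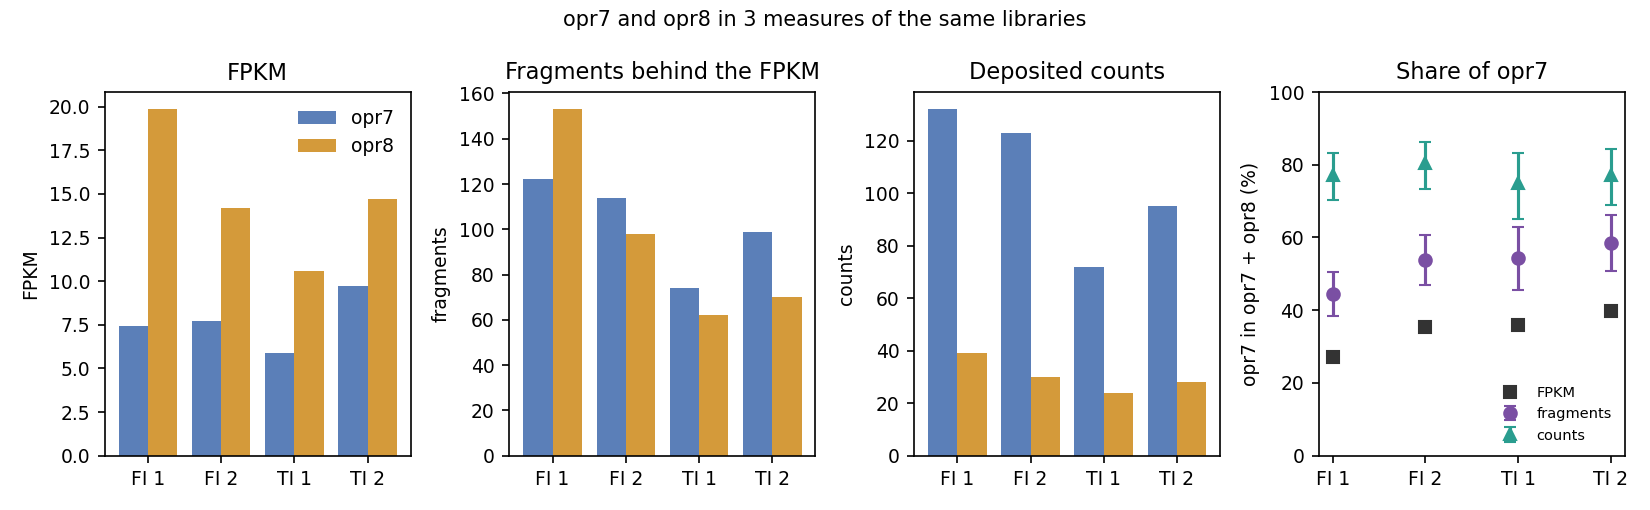
*opr7* (blue) and *opr8* (orange) in FI replicates 1 and 2 and TI replicates 1 and 2 as FPKM, as fragments behind the FPKM and as deposited counts, on linear axes from 0. The last panel gives the share of *opr7* in their sum, with exact 95% binomial intervals for fragments and counts: 27.2 to 39.8% in FPKM, 44.4 to 58.6% in fragments and 75.0 to 80.4% in counts.

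The tables differed for all 3 genes, with *opr7* on one side of the tables' own ratio and *opr8* and *ts1* on the other. Over all genes, fragments over counts were 1.62 and 1.66 in FI, against 1.62 and 1.65 in TI. They were 0.924 and 0.927 in FI against 1.03 and 1.04 in TI for *opr7*, and 3.92 and 3.27 in FI against 2.58 and 2.50 in TI for *opr8*. For *ts1* they ran between 4.85 and 7.82 over the 4 libraries. *opr7* thus had fewer fragments per count than all genes together in every library, and *opr8* and *ts1* had more. The version 3 model of *opr8* had counts for 1 transcript only, and nearly all counts of *opr7* were on 1 transcript. *opr7* and *opr8* are near-identical copies, between which the authors' alignment and counting could split reads, so their levels relative to each other are uncertain. The cause of the difference between the tables was not tested.

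The enzymes around these genes were followed by symbol in the count table, and in FPKM for the few whose 2 identifiers the study's own gene table pairs. In the 4 enzyme families from lipoxygenase to OPDA reductase, with *ts1*, *opr7* and *opr8* left out, 13 of 23 genes were tested. The quasi-likelihood test called none of them, and 0% of all genes. The families were taken by symbol, hold members outside jasmonate synthesis such as *lox4*, and were not sorted by role. Their counts and median are thus not those of jasmonate genes alone. At an unadjusted p under 0.05, 2 of the 13 were higher in FI and 1 was lower, against 6.11% and 9.67% of all genes. edgeR's exact test, which called 4.65% of all genes (1.22% higher and 3.42% lower in FI), called 1 of them, higher in FI. In CPM, 8 of the 13 genes had both FI libraries above both TI libraries and 3 had both below, against 30.3% and 26.6% of all genes. Their median log2FC was 0.85, beside −0.00149 for all genes. Against TI replicate 1 alone, both FI libraries were above it for 10 genes and below it for 3, beside 43.7% and 39.3% of all genes. Against TI replicate 2 alone they were above it for 8 and below it for 4, beside 40.3% and 35.8% of all genes.

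The lipoxygenases made up most of the genes with both FI libraries above both TI libraries. Of the 8 tested, 6 were so and 1 had both below, beside 30.3% and 26.6% of all genes. Against TI replicate 1 alone, 7 were above it and 1 below, beside 43.7% and 39.3% of all genes. Against TI replicate 2 alone, 6 were above it and 1 below, beside 40.3% and 35.8%. The median log2FC of the lipoxygenases was 1.11. *lox1*, the most abundant by CPM, had 996 and 1229 counts in FI, against 337 and 516 counts in TI, a log2FC of 0.85 with an FDR of 0.327. *lox4*, a lipoxygenase of the branch that does not lead to jasmonate, had 381 and 246 counts in FI, against 34 and 80 counts in TI. Its log2FC was 1.88 (95% interval 0.56 to 3.21), with an FDR of 0.255 in the quasi-likelihood test and 0.0483 in the exact test, the only call in the 4 families. *lox11* had 85 and 57 counts in FI, against 12 and 30 counts in TI, a log2FC of 1.19 with an FDR of 0.359. In all 3 the TI replicate 2 count was above that of TI replicate 1 despite its lower depth. The gene with the opposite order was *lox9*, named for that order, with a log2FC of −1.58 and an FDR of 0.264. The study's own gene table, which was chosen on these libraries, holds *lox4*, *lox9* and *lox11* and none of *ts1*, *ts2*, *sk1*, *opr7* and *opr8*. *lox4* had 10.3 and 7.24 FPKM in FI, against 1.34 and 3.42 FPKM in TI, a log2FC of 1.58 with an FDR of 0.234 in limma. *lox11* had 54.2 and 38.6 FPKM in FI, against 9.40 and 23.0 FPKM in TI, a log2FC of 1.57 with an FDR of 0.240. *lox9* had 4.82 and 4.83 FPKM in FI, against 17.5 and 10.4 FPKM in TI, a log2FC of −1.32 with an FDR of 0.228. In these 3 genes the order of the tissues was that of the counts. Both measures come from the same libraries, and the 3 genes were in a table chosen on them, so this match is no separate support. The level of *lox11* was above that of *lox4* in FPKM and below it in counts, in all 4 libraries.

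Of the steps between the lipoxygenases and the OPDA reductases, *aos1* and *aoc1* had more counts in FI than in TI, without a call. *aos1*, an allene oxide synthase, had 656 and 652 counts in FI, against 250 and 330 counts in TI, with a log2FC of 0.64 (95% interval −0.06 to 1.33; FDR 0.3333). *aos3* and *aos4* had too few counts for the test. Of the allene oxide cyclases, *aoc1* had 53 and 44 counts in FI, against 16 and 20 counts in TI, with a log2FC of 0.90 (−0.07 to 1.86; FDR 0.3328). *aoc2* overlapped between the tissues, with a log2FC of 0.16.

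The other OPDA reductases had the opposite order to *aos1* and *aoc1*. *opr6* had 301 and 209 counts in FI, against 321 and 213 counts in TI, which with the lower depth of TI gave a log2FC of −0.57 (95% interval −1.20 to 0.06; FDR 0.335). *opr5* had 35 and 33 counts in FI, against 64 and 31 counts in TI, a log2FC of −0.96 (−1.98 to 0.05; FDR 0.325). For both genes both FI libraries were below both TI libraries in CPM, as for 26.6% of all genes. *opr2* had too few counts for the test. *ts5*, whose product inactivates jasmonate by hydroxylation and whose gain of function also feminizes the tassel, had 0 and 4 counts in FI, against 5 and 0 counts in TI.

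**Figure D4:**
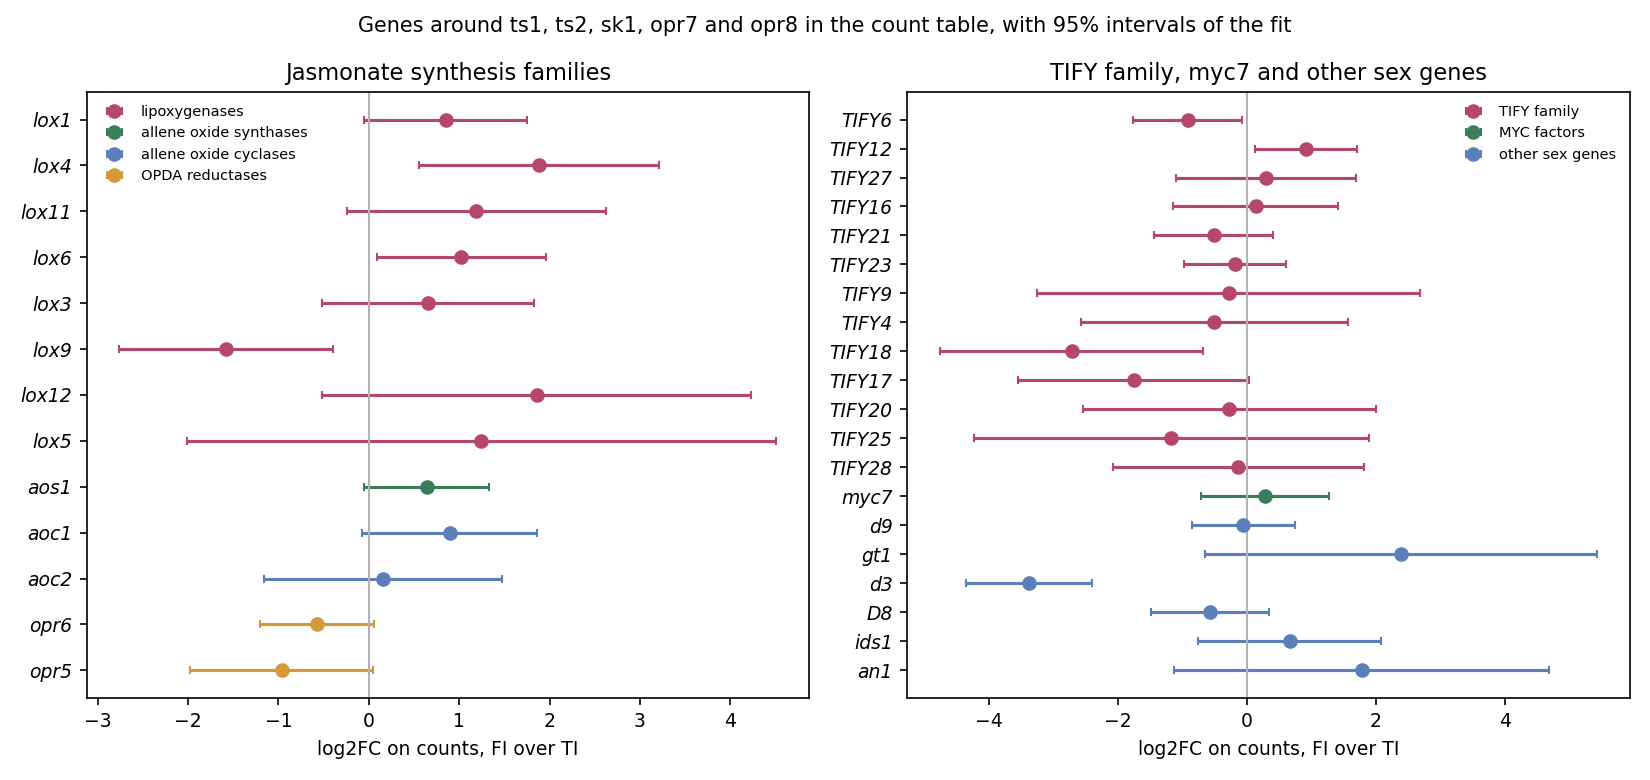
log2FC on deposited counts, FI over TI, with 95% intervals of edgeR's quasi-likelihood fit. On the left are the tested genes of the 4 families from lipoxygenase to OPDA reductase, not all of them in jasmonate synthesis. On the right are the TIFY family, MYC factors and other sex determination genes. Most lipoxygenases lie to the right of 0 and *opr5* and *opr6* to the left; *d3*, at −3.37, lies farthest to the left. No gene shown had an FDR under 0.05, which 0% of all genes had in that fit.

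Downstream of jasmonate, the TIFY family, which includes the JAZ repressors of the jasmonate response, was mixed. Of its 21 genes 13 were tested, and the quasi-likelihood test called none of them, and 0% of all genes. At a p under 0.05 in that test, 1 was higher and 2 were lower in FI, beside 6.11% and 9.67% of all genes. The median log2FC of the family was −0.28. Of the 13 genes, 1 had both FI libraries above both TI libraries and 4 had both below, beside 30.3% and 26.6% of all genes. *TIFY6* had 224 and 371 counts in FI, against 440 and 359 counts in TI, with a log2FC of −0.91 (FDR 0.303). *TIFY12* had 260 and 252 counts in FI, against 78 and 109 counts in TI, with a log2FC of 0.92 (FDR 0.286), and *TIFY27* overlapped between the tissues. The exact test, which called 3.42% of all genes as lower in FI, called 1 gene of the family, *TIFY18*, with a log2FC of −2.71 and an FDR of 0.0441, from 2 and 11 counts in FI, against 41 and 22 counts in TI. *TIFY18* also is in the study's own table. Under the name *Zim2*, the study reports it as higher in TI by quantitative PCR as well. In FPKM it had 0.526 and 1.18 in FI, against 6.69 and 5.69 in TI, with a log2FC of −1.98 and an FDR of 0.224 in limma. *myc7*, a MYC transcription factor, had a log2FC of 0.28 (FDR 0.722).

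Of 7 other genes that act on the sex of maize flowers, 6 were tested. The quasi-likelihood test called none of them, and 0% of all genes. At a p under 0.05 in that test, 0 were higher and 1 was lower in FI, beside 6.11% and 9.67% of all genes. *d9*, a DELLA repressor of the gibberellin response, had a log2FC of −0.05 (FDR 0.942). *gt1*, a homeodomain factor that represses carpels in the tassel, had 105 and 86 counts in FI, against 0 counts in TI replicate 1 and 24 counts in TI replicate 2. Its log2FC was 2.39 (95% interval −0.64 to 5.43; FDR 0.371). *d3*, an enzyme of gibberellin synthesis, had 8 and 6 counts in FI, against 56 and 47 counts in TI, with both TI replicates at a like level. Its log2FC was −3.37 (−4.34 to −2.39), with an FDR of 0.201 in the quasi-likelihood test and of 2.95e-08 in the exact test. Among the 6 genes the exact test called only *d3*. Over all genes it called 3.42% as lower in FI and 1.22% as higher. *d3* too is in the study's own table, and in FPKM it had 0.710 and 2.65 in FI, against 10.4 and 6.72 in TI, with a log2FC of −1.91 and an FDR of 0.231 in limma.

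The genes whose profile over the 4 libraries was most like that of *ts1*, *opr7* or *opr8* were sought among genes with a symbol and a mean CPM within 2-fold. Likeness is the Euclidean distance between log2(CPM + 1) profiles, each centred on its own mean, where 0 is an identical shape. For *ts1* the nearest of 29 candidates were *ZCN14* at 0.583 and *SCR* at 0.599. For *opr7* the nearest of 32 were *RAB2B* at 0.203 and *mbd113* at 0.3328, and for *opr8* the nearest of 40 were *dhar4* at 0.352 and *TENA2* at 0.377. *RAB2B* shared the order of *opr7* in TI, with 92 counts in TI replicate 1 and 117 counts in TI replicate 2. With 4 libraries, such a distance describes these libraries only.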

How the data were processed

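Total RNA was sequenced as 2 FI and 2 TI libraries. The authors cleaned the paired-end reads (FastQC 0.11.2, Trimmomatic), aligned them with TopHat2 2.0.13 and deposited raw counts per transcript, not normalized, under version 3 names. Per the labels the build was B73 RefGen_v3, while the methods name B73 RefGen_v4. The tool that counted reads is not given in the sources used here. For the FPKM per gene the authors used CLC Genomics Workbench, with B73 RefGen_v4 as the genome. Fold changes and FDR of the authors' own comparison, deposited beside these values, were not used. Count columns named for the floral stem were taken as FI, since TI has columns of its own. No per-sample column was left unmapped.

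The count table adds up to 2431447 and 2072230 counts for FI, against 1817889 and 1455729 counts for TI. Counts of each gene model were added up and passed through filterByExpr at a minimum count of 10 and a minimum total of 15. Scaling by TMM and edgeR 4.0.16 in R 4.3.3 followed, with its quasi-likelihood test. For FPKM, limma 3.58.1 was run on log2(FPKM + 1) of the genes that averaged at least 1 FPKM. A log2FC on this scale understates the change of low genes. P-values were adjusted by Benjamini-Hochberg over all genes, and calls needed an FDR under 0.05.

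Whole fragments behind the FPKM were recovered from the steps between low values, and 24146 of 24149 genes above 0 in at least 2 libraries gave whole numbers. The smallest whole numbers were taken, so a multiple shared by all libraries would not be seen. A gene above 0 in 1 library only, such as *ts2*, was set to the smallest whole number too. The genes and the lists were chosen with earlier results of these data known. All 5 genes are named, and the 3 genes of each list with the highest mean, by CPM in place of the planned FPKM, since no B73 RefGen_v4 name matched the RefSeq gene table of assembly Zm-B73-REFERENCE-NAM-5.0; the 2 genes of nearest profile were taken on CPM for the same reason. Symbols and version 3 names came from that table. Outside the rule on level, *lox9* was named for its order between the tissues and *TIFY18* for its call in the exact test. No acyl-CoA oxidase, JAR, COI or further catabolism gene matched by symbol. Alternatives were DESeq2 1.42.0, the exact test of edgeR, other filters, scalings and pseudocounts, transcript counts, recovered fragments, a replicate block and leaving out each library. The fits were tested on simulated data.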

Additional observations from a re-analysis of the deposited data

How the results depend on the processing

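None of *ts1*, *opr7* and *opr8* had an FDR under 0.05 in any alternative run, in FPKM or in counts. The lowest FDR over the alternatives was 0.252 for *ts1*, 0.404 for *opr7* and 0.157 for *opr8* in FPKM, and 0.593, 0.346 and 0.456 in counts. Counts per transcript gave no value for *ts1*, which was filtered out. Signs were less stable, and the cause was not tested. The log2FC of *opr7* in FPKM, −0.01 with all libraries, ran from −0.33 to 0.31 with each library left out in turn. In counts, *ts1* had a log2FC of −0.04, but of 0.00 (0.00201 unrounded) without a filter on low counts, of 0.012 with DESeq2, of 0.38 with recovered fragments in either test, and of −0.51 to 0.87 with each library left out. *opr7* had 0.08 in counts, −0.075 and −0.074 with recovered fragments in the quasi-likelihood and exact tests, and −0.21 to 0.48 with each library left out. *opr8* had −0.12 in counts, 0.40 with recovered fragments in either test, and −0.34 to 0.18 with each library left out.

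Over all genes, limma on FPKM called 0 genes (3749 at a p under 0.05), 3 after quantile normalization, and 0 to 5362 with each library left out; 52 came without TI replicate 1 and the highest without TI replicate 2. The quasi-likelihood test on counts called 0 genes (2443 at a p under 0.05), 477 without the filter, and 0 to 4072 with each library left out; 410 came without TI replicate 1 and the highest without TI replicate 2. DESeq2 called 319, the exact test 719 and the exact test on recovered fragments 892. With the replicate number as a block, 0 genes were called in FPKM and 0 in counts, and the log2FC of *ts1* in counts was 0.055. The deviations of same-numbered libraries correlated with 0.174 in FPKM and 0.160 in counts over genes, and nothing says that the numbers pair the libraries. The share of *opr7* in its sum with *opr8* moved with the measure. It was 27.2% and 35.3% of FPKM in FI and 35.8% and 39.8% in TI, 44.4% and 53.8% of fragments in FI and 54.4% and 58.6% in TI, and 77.2% and 80.4% of counts in FI and 75.0% and 77.2% in TI.

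*ts1*, *opr7* and *opr8* had 28 to 153 fragments per library, and their replicates differed by up to 0.70 on the log2(FPKM + 1) scale. *ts2* and *sk1*, with 0 to 4 fragments, could not be compared.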
